A study of Mus musculus with 10 samples.

Results

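The mitochondrial ribosomal proteins examined here were the protein-coding genes whose symbol begins with Mrpl or Mrps followed by a number, taken once per symbol and kept when their mean over the lines was at least 10. The rule found 78 genes, 49 Mrpl and 29 Mrps, out of 20206 genes in the table. All 78 passed that filter, and none was left out for a low value. The rule used no comparison between diets, so that each gene could be tested.

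Mitochondria carry their own ribosome, which makes only the few proteins that the mitochondrial genome encodes. All of those proteins are core subunits of the respiratory chain and of ATP synthase. The ribosomal RNAs come from the mitochondrial genome, whereas every protein of the mitoribosome is encoded in the nucleus, made in the cytosol and imported. Genes named Mrpl encode, with few exceptions, proteins of the large subunit, which forms the peptide bond. Genes named Mrps encode, again with exceptions, proteins of the small subunit, which reads the mRNA. Some of these proteins descend from bacterial ribosomal proteins and others were added during the evolution of mitochondria. Pluripotent stem cells rely heavily on glycolysis, yet they keep a working respiratory chain.

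RNA sequencing was carried out on 10 C57BL/6 wild-type mouse embryonic stem cell (ESC) lines, each established from a blastocyst. The mothers of 5 lines (LPD 1, 4, 6, 20 and 40) ate low protein diet with 9% casein until the blastocysts were collected, and the mothers of the other 5 (NPD 8, 15, 21, 36 and 51) ate normal protein diet with 18% casein. All lines were labelled male and were grown free of feeder cells for RNA extraction after growth on feeder layers. By the methods the lines came from different mothers, and each line was sequenced once. The comparison of LPD with NPD asks whether the maternal diet left a mark on these genes after the cells had been cultured for many passages.

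The deposited values are normalised estimated counts per gene, with line totals between 16398672 and 18324979. The value of 1 read gave a depth of 20529718 to 23969887 read equivalents in 7 lines, but of 12406393 in LPD 6, 11245365 in LPD 40 and 5810341 in LPD 4. Even in LPD 4 the lowest of the 78 genes stood at 305, which corresponds to about 105 reads. NPD 15 went against its label of male, because the Y-linked gene Ddx3y was listed at 7.70 there and at 1109.7 to 1493 in the other lines apart from LPD 4, where it was 174. The summed level of 10 pluripotency genes overlapped between diets, at 76664 to 100529 in LPD and 76996 to 102248 in NPD, with Pou5f1 between 18250 and 30419.9 in all lines. Fibroblast genes summed to 393 to 4021 in LPD and 472 to 6769 in NPD, primitive endoderm genes to 1712 to 11490.2 and 967 to 8728, and trophectoderm genes to 2219 to 3762 and 2312 to 4640.1. Their part in the results on the mitoribosome was not tested.

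The mitoribosomal genes lie apart from each other, on 17 chromosomes, with 11 of them on chromosome 11 and 8 on chromosome 17. For 33 of 78 (42.3%), another protein-coding gene starts on the opposite strand within 1000 bases of their own start, as against 2099 of 13723 protein-coding genes tested (15.3%). In 1 case the neighbour is another member, since Mrpl46 and Mrps11 share a start region on chromosome 7. In 15 of the 33 the annotated genes overlap, and as no source used here describes a library that keeps the strand, reads in the overlap cannot be assigned to 1 of the 2 genes.

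RefSeq promoters, 250 bases before to 50 after the start on GRCm38.p6, were found for 69 of the 78 genes. They were searched on both strands for core motifs of NRF1 (GCGCATGC), of ETS factors such as GABPA (CCGGAAGT) and of YY1 (AAGATGGCG), which are known regulators of nuclear genes for mitochondrial proteins, and for a TATA motif (TATAAA). Matches of the NRF1 core and of its reverse complement can overlap, and each promoter was counted once per motif. The NRF1 core was present in 8 of 69 (11.6%), as against 3.94% of 17492 protein-coding genes with a promoter. The ETS core was present in 12 (17.4%, against 5.69%) and the YY1 core in 8 (11.6%, against 2.14%). The TATA motif was present in 5 (7.25%, against 14.8%). At least 1 of the NRF1, ETS and YY1 cores was found in 26 of 69 promoters (37.7%, against 11%), 18 of them Mrpl and 8 Mrps, and Mrpl33 and Mrps27 held more than 1. In 6 of the 8 promoters with the YY1 core a match reached past the start, as against 1 of 8 for NRF1 and 2 of 12 for ETS. A match is a string of letters and not a proven site. The promoters below show these motifs in capitals within the 150 bases before the RefSeq start, read 5′ to 3′ on the strand of the gene. Mrpl16 is shown because it was the only member whose diet groups did not overlap, and it carries the TATA motif. Mrpl17 and Mrpl22 show the NRF1 core, and Mrpl3 and Mrps22 the ETS core, close to the start.

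Mrpl16 (chr19:11770265-11770414, plus strand): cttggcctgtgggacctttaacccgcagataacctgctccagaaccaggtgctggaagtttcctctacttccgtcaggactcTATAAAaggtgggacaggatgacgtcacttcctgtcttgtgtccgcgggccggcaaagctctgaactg
Mrpl17 (chr7:105811088-105811237, minus strand): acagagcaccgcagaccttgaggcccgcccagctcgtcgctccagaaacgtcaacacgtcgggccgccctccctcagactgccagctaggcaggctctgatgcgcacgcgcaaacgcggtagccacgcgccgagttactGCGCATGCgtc
Mrpl22 (chr11:58171514-58171663, plus strand): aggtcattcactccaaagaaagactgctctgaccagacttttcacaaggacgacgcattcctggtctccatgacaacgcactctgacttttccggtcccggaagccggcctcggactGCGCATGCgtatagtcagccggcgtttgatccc
Mrpl3 (chr9:105053118-105053267, plus strand): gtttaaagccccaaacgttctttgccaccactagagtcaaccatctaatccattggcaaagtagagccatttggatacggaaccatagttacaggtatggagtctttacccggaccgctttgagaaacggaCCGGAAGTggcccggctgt
Mrps22 (chr9:98601680-98601829, minus strand): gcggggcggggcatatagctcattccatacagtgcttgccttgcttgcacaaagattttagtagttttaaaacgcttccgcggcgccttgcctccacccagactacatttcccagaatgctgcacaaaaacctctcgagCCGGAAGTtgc

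All 78 genes were expressed in every line, and no value fell under 236. Their means over the 10 lines ran from 290 to 2110 normalised counts with a median of 902. Divided by transcript length, the levels ran from 100.4 to 2694 per kb with a median of 681, at 802 for Mrpl and 581 for Mrps. The highest per kb were Mrpl42 (2694), Mrpl33 (2499), Mrpl52 (2107), Mrpl20 (2017) and Mrps21 (1903). These genes encode small proteins, and their annotated transcripts are short, from 440.5 to 661 bases. The lowest were Mrpl32 (100.4), Mrpl47 (167), Mrpl19 (169), Mrpl35 (174) and Mrps26 (176), whose annotated transcripts run from 3013 to 5000 bases. The length used was the median over a gene's annotated coding transcripts, so a gene that uses a shorter one is set too low on this scale. When the coding length was used in its place, Mrpl33 and Mrpl42 were again the highest, whereas Mrpl35 moved from place 75 to place 55 and Mrps26 from 74 to 52. For comparison, the median per kb was 24521 for 79 cytosolic ribosomal protein genes and 2406 for 78 nuclear respiratory chain subunits.

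Members with a known place in the ribosome were described whatever their values, and none of those chosen by role passed a limma unadjusted p under 0.05 between diets. Mrpl10, Mrpl11 and Mrpl12 form the stalk that recruits translation factors. Mrpl12 was 1622 ± 243 in LPD and 1626 ± 122 in NPD (SD, n = 5 each), Mrpl11 was 1299.9 ± 195 and 1303 ± 149, and Mrpl10 was 1183 ± 66.9 and 1134 ± 96.2. Mrps12, a decoding protein of the small subunit, was 737 ± 103 in LPD and 765 ± 56.4 in NPD. Mrpl45, which holds the exit of the peptide tunnel to the inner membrane, was 1704 in LPD and 1635 in NPD on average (log2 difference 0.06 ± 0.08 SE). Mrpl58, a peptidyl-tRNA hydrolase built into the large subunit, was 796 ± 67.0 and 826 ± 99.0. On the log2(value + 1) scale the differences of these 6 genes between diets ran from -0.06 for Mrps12 to 0.06 for Mrpl10, with limma unadjusted p from 0.472 to 0.947.

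Gene names do not always give the subunit. Mrps18a, Mrps18b and Mrps18c are paralogues of 1 bacterial protein, and Mrps18a and Mrps30 sit in the large subunit in known structures. Mrps18b was the most abundant of the 3 paralogues per kb (1735, against 1169 for Mrps18c and 821 for Mrps18a). It varied among LPD lines, at 1340.2 in LPD 1, 1493 in LPD 4, 1653 in LPD 6, 2218 in LPD 20 and 1748 in LPD 40. Mrps30 was 879 ± 120.2 in LPD and 809 ± 61.5 in NPD (log2 difference 0.11 ± 0.11 SE, limma unadjusted p = 0.313). Mrps36, now known as a subunit of the 2-oxoglutarate dehydrogenase complex and not a part of the mitoribosome, was 621 ± 57.6 and 579.8 ± 82.1 (0.11 ± 0.11, limma unadjusted p = 0.372). The mitoribosome also holds proteins without an Mrp symbol, of which 5 were examined. Dap3, Ptcd3, Chchd1 and Aurkaip1 belong to the small subunit and Gadd45gip1 to the large. None of the 5 passed a limma unadjusted p under 0.05, and their differences ran from -0.07 for Ptcd3 to 0.13 for Aurkaip1.

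Between diets, Mrpl16 was the only mitoribosomal gene at a limma unadjusted p under 0.05, and no member passed adjustment. With limma and Benjamini-Hochberg adjustment over all 14354 genes tested, 0 of 78 had an adjusted p under 0.1, and the lowest adjusted p among them was 0.953. No gene of the table passed that threshold (0%). At a limma unadjusted p under 0.05 Mrpl16 was thus 1 of 78 (1.28%), as against 721 genes of all tested (5.02%), of which 2.84% were higher and 2.18% lower in LPD. By the exact permutation test 3 members (3.85%) were at an unadjusted p under 0.05, Mrpl16, Mrpl1 and Mrps23, as against 766 of all genes (5.34%). The exact Mann-Whitney test gave 2 members (2.56%) at an unadjusted p under 0.05, as against 516 of all genes (3.59%), and 0 members after adjustment. Mrpl16 was also the only one whose diet groups did not overlap, as against 1.02% of all genes. The log2 differences ran from -0.17 (Mrps34) to 0.22 (Mrpl16), 60 of 78 were under 0.1 in size, and only 2 were over 0.2. Their standard errors ran from 0.077 to 0.193.

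**Figure D1:**
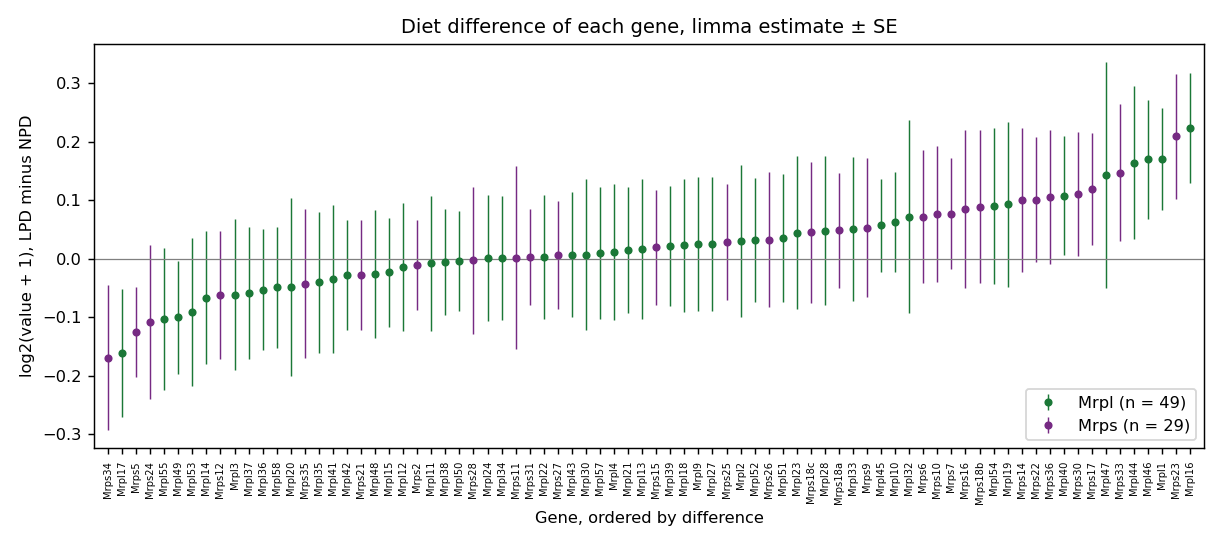
Difference of mean log2(value + 1) between LPD and NPD lines (vertical axis, limma estimate with bars of ± SE, n = 5 lines per diet) for each of the 78 genes, ordered by the difference along the horizontal axis, with Mrpl genes in green and Mrps genes in purple. The estimates run from -0.17 to 0.22 and most bars cross 0.

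Mrpl16 encodes the mitochondrial homologue of a bacterial protein near the peptidyl transferase centre of the large subunit, and lies on chromosome 19 at 11770391 to 11774960 (GRCm38). Its values were 737, 757, 746, 875 and 785 in LPD 1, 4, 6, 20 and 40, and 667, 694, 702, 573 and 707 in NPD 8, 15, 21, 36 and 51. Every LPD line was above every NPD line, but the lowest LPD value and the highest NPD value were close. The means were 780.0 ± 56.4 and 669 ± 55.4 (SD, n = 5 each). The log2 difference was 0.22 ± 0.09 (SE), with an unadjusted p of 0.0336 and an adjusted p of 0.953 by limma with Benjamini-Hochberg adjustment. The two-sided exact permutation test over the 252 assignments of lines gave p = 0.00794, the smallest that 5 against 5 lines allow. The unadjusted limma p rose to 0.0797 without LPD 20 and 0.0960 without NPD 36, with log2 differences of 0.18 and 0.17. It was 0.0513 without LPD 40, 0.0536 without NPD 8 and 0.0513 with depth as a covariate, while the log2 difference was 0.22, 0.22 and 0.26. The lines of low depth, LPD 4, LPD 6 and LPD 40, are all LPD, so depth overlaps in part with diet. Without NPD 15, the line at odds with its label, limma gave an unadjusted p of 0.0406.

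The next genes on the higher side overlapped between diets. Mrps23, a small-subunit protein found only in mitochondria, was 550.1, 523, 524, 447 and 541 in LPD 1, 4, 6, 20 and 40, and 415, 458, 480.0, 389 and 496 in NPD 8, 15, 21, 36 and 51. Here 4 LPD lines were above every NPD line and LPD 20 fell among the NPD lines (log2 difference 0.21 ± 0.11 SE, limma unadjusted p = 0.0715, exact permutation p = 0.0476). The values of Mrps23 are identical to those of another gene identifier in the table, so its reads could not be assigned to it alone. The same holds for Mrps10.

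Mrpl1 forms the mobile L1 stalk, through which spent tRNA leaves the ribosome. Its values were 709, 687, 671, 757 and 659 in LPD 1, 4, 6, 20 and 40, and 627, 586, 684, 602 and 596 in NPD 8, 15, 21, 36 and 51. Only NPD 21 stood within the range of the LPD lines (log2 difference 0.17 ± 0.09 SE, limma unadjusted p = 0.0722, exact permutation p = 0.0238). Mrpl46, in the central protuberance of the large subunit, differed by 0.17 ± 0.10 (limma unadjusted p = 0.117), and Mrps11, with which it shares a start region, by 0.00 ± 0.16 (limma unadjusted p = 0.989). Mrpl44, a protein with a ribonuclease III-like fold near the tunnel exit, stood at 874 in LPD 20 and between 494 and 658 in the other 9 lines (0.16 ± 0.13, limma unadjusted p = 0.232). Mrps33, a small-subunit protein, differed by 0.15 ± 0.12 (limma unadjusted p = 0.233).

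On the lower side no gene reached a limma unadjusted p under 0.05. Mrps5, a homologue of the bacterial small-subunit protein S5, was 1634, 1593, 1619, 1852 and 1649.7 in LPD 1, 4, 6, 20 and 40, and 1701, 1906, 1776, 1952 and 1771 in NPD 8, 15, 21, 36 and 51. All LPD lines but LPD 20 were below every NPD line (log2 difference -0.13 ± 0.08 SE, limma unadjusted p = 0.126, exact permutation p = 0.0635). Mrpl17, near the exit of the peptide tunnel, was 1592, 1592, 1527, 1620.4 and 1946 in LPD 1, 4, 6, 20 and 40, and 1567, 1918, 2148, 1597 and 2066 in NPD 8, 15, 21, 36 and 51. The NPD lines fell into a lower pair, NPD 8 and NPD 36, and 3 higher lines (-0.16 ± 0.11, limma unadjusted p = 0.167). The lower pair overlapped the LPD lines, and NPD 15 among the higher lines was below LPD 40. Mrps34, a mitochondria-specific protein of the small subunit, was lowest in LPD 4 (662) and highest in NPD 51 (1044) and LPD 20 (1029), with a difference of -0.17 ± 0.12 (limma unadjusted p = 0.195). Mrpl49, Mrpl55 and Mrps24 had differences of -0.10, -0.10 and -0.11 with limma unadjusted p from 0.320 to 0.426.

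**Figure D2:**
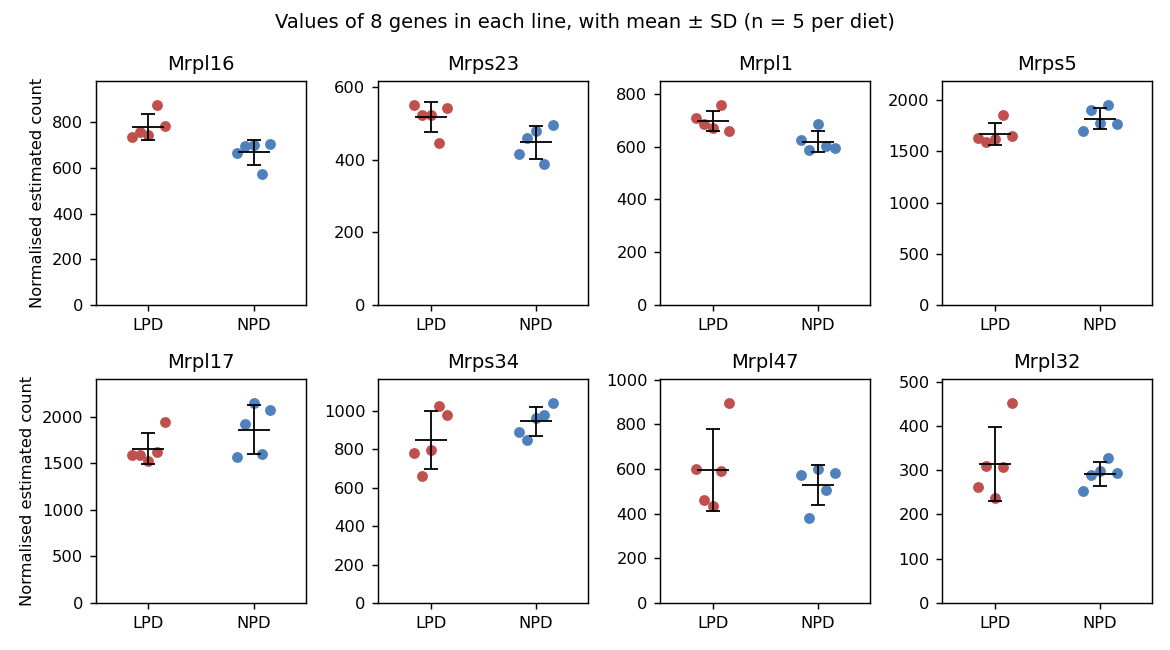
Normalised estimated counts (vertical axes, from 0) of 8 genes in each LPD line (red points) and NPD line (blue points), with black bars for the mean ± SD of 5 lines; the upper row holds Mrpl16, Mrps23, Mrpl1 and Mrps5, the lower row Mrpl17, Mrps34, Mrpl47 and Mrpl32. Only Mrpl16 shows no overlap between diets, and a single LPD line at 896 for Mrpl47 and 452 for Mrpl32 stands above the others.

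As groups, Mrpl and Mrps genes were compared by their medians. The median log2 difference was 0.011 over 49 Mrpl genes, of which 30 were higher in LPD, and 0.045 over 29 Mrps genes, of which 21 were higher. Mrps18a, Mrps30 and Mrps36 are counted among the Mrps genes here. With subunits assigned as in known structures, the medians were 0.011 over 52 large-subunit genes and 0.039 over 30 small-subunit genes. That grouping left out Mrps36 and took in the 5 proteins without an Mrp symbol. Over all 78 genes the median was 0.018 with 51 higher, beside 0.0020 and 7247 of 14354 over all genes tested. The Mrpl median was 0.034 below the Mrps median. Taken within single lines instead, the median Mrpl deviation minus the median Mrps deviation was -0.016 ± 0.048 in LPD and -0.0006 ± 0.037 in NPD (SD, n = 5 each). The SD of 0.043 over both diets is that of single lines and not the error of a difference between diets. The medians of genes with a bacterial counterpart and of those specific to mitochondria were 0.014 and 0.011 in the large subunit, and 0.032 and 0.031 in the small. Mrps18a and Mrps18b were counted here as specific to mitochondria, although they are paralogues of a bacterial protein. The sign of the overall median rested on single lines and on scaling: without LPD 40 it was -0.025 with 27 of 78 genes higher, without NPD 15 it was -0.0017 with 37 higher, and with every line set to the same total it was -0.016 with 30 higher. The ratio of summed Mrpl to summed Mrps values was 2.00 ± 0.0363 in LPD and 2.02 ± 0.0325 in NPD (SD, n = 5 each), and ran only from 1.95 in LPD 6 to 2.07 in NPD 51.

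The 78 genes moved together by line. Each gene's log2(value + 1) was set against its own median over the 10 lines, and the median of these deviations over the 78 genes was taken per line. It was -0.020, -0.077, -0.084, 0.083 and 0.17 in LPD 1, 4, 6, 20 and 40, and -0.096, -0.059, 0.11, -0.057 and 0.091 in NPD 8, 15, 21, 36 and 51. Above their own median were 70 of 78 genes in LPD 40, 64 in NPD 21, 64 in NPD 51 and 63 in LPD 20. In the other 6 lines the number was between 17 (NPD 8) and 31 (LPD 1). Of all 10455 genes whose mean was 100 or more, the share above their own median was 46.1% to 55.3% in every line. Lines of both diets were thus on either side, and 72 of 78 genes had their highest value in LPD 20, LPD 40, NPD 21 or NPD 51, 4 lines singled out after their values were seen. LPD 40 alone held the highest value of 39 genes, whereas LPD 6 held the lowest of 23 and LPD 4 of 16. These counts of highest and lowest values were not set beside those of all genes, so they are not shown to be a trait of the 78. Shifts by line were not particular to the mitoribosome. The shares of cytosolic ribosomal and respiratory chain genes above their own median were 98.7% and 93.6% in LPD 40, beside 89.7% of the 78. In NPD 21 they were 97.5% and 94.9%, beside 82.1%. They were 67.1% and 70.5% in LPD 20, beside 80.8%, and 51.9% and 65.4% in NPD 51, beside 82.1%.

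**Figure D3:**
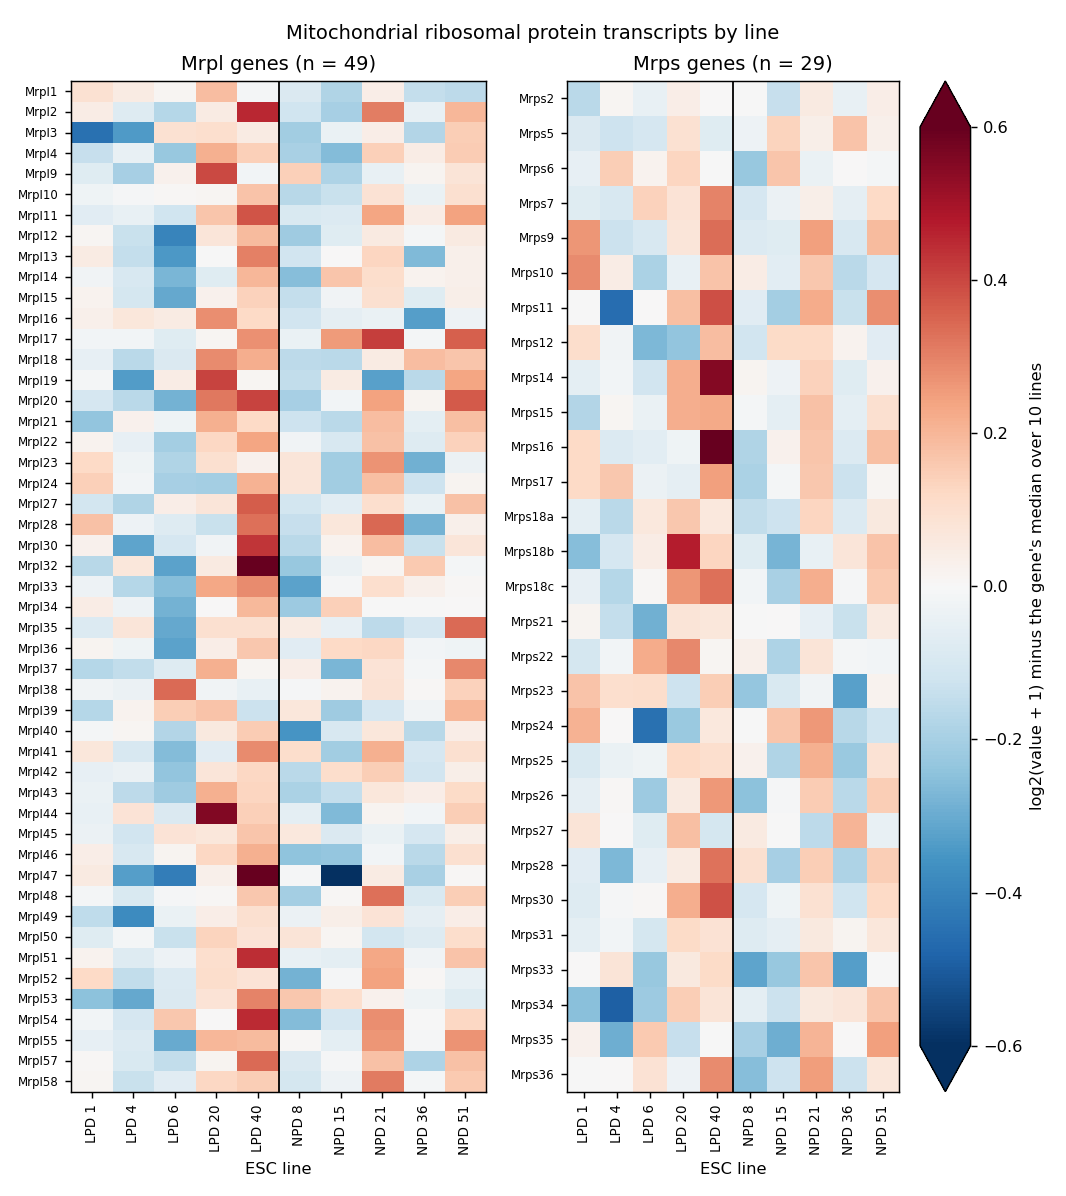
Deviation of log2(value + 1) from each gene's median over 10 lines (colour, red above and blue below, saturated at ± 0.6) for 49 Mrpl genes (left) and 29 Mrps genes (right) in 5 LPD and 5 NPD lines, which a black rule separates. Columns LPD 20, LPD 40, NPD 21 and NPD 51 are mostly red in both panels.

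Mrpl and Mrps genes moved together from line to line. Their medians were 0.17 and 0.15 in LPD 40, 0.083 and 0.084 in LPD 20, 0.099 and 0.14 in NPD 21, and 0.096 and 0.066 in NPD 51. At the low end they were -0.11 and -0.075 in NPD 8 and -0.10 and -0.043 in LPD 6. The gap between them was widest in LPD 4, where Mrpl stood at -0.091 and Mrps at -0.017. In bulk RNA, less RNA per cell and fewer cells of a type cannot be told apart. The sum of the 10 fibroblast genes was 454, 393, 472 and 568 in LPD 20, LPD 40, NPD 21 and NPD 51, the lines with a positive mitoribosomal median, and 608, 801, 4021, 2350, 6769 and 1275 in LPD 1, LPD 4, LPD 6, NPD 8, NPD 15 and NPD 36. Col1a2, a collagen gene of fibroblasts, was 46.6 to 97.8 in the former 4 lines and in LPD 1 and LPD 4, but 1121 in LPD 6, 754 in NPD 8, 1442 in NPD 15 and 358 in NPD 36. The pluripotency genes summed to 89426 to 102248 in the 4 lines with a positive median and to 76664 to 88815 in the other 6. Of these genes only Pou5f1 and Tdgf1 were higher in each of the 4 lines than in all of the other 6. Nanog, Klf4 and Sox2 were lowest of all lines in LPD 20, at 5141, 3665 and 7481. Sox2, Fgf4 and Dppa3 were highest in NPD 15, at 10969, 5717 and 379. The part of cell types in the shift was not tested. Summed over the 78 genes, the values were 77310 ± 6855 in LPD and 76383 ± 5289 in NPD (SD, n = 5 each), or 0.446% ± 0.0284 and 0.451% ± 0.0205 of the total.

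Other genes of translation and respiration shifted in some of the same lines. The median deviation of 79 cytosolic ribosomal protein genes was 0.29 in LPD 40, 0.21 in NPD 21, -0.16 in NPD 8 and -0.18 in NPD 36. That of 78 nuclear subunits of the respiratory chain was 0.31, 0.18, -0.14 and -0.16 in those 4 lines. In LPD 20 and NPD 51 these sets were near 0 (0.031 and 0.028 in LPD 20, 0.0045 and 0.023 in NPD 51), whereas the mitoribosomal genes stood at 0.083 and 0.091. In LPD 1 the order was turned, with cytosolic ribosomal proteins at 0.063 and mitoribosomal proteins at -0.020. The 13 protein-coding genes of the mitochondrial genome, whose messages the mitoribosome translates, had a median of -0.27 in LPD 20, -0.22 in LPD 40 and 0.21 in NPD 8. It was 0.17 in LPD 1, 0.14 in LPD 4, 0.10 in LPD 6 and -0.076 in NPD 21. In all of these lines the mitoribosomal median had the other sign. In NPD 36 and NPD 15 both medians were below 0, at -0.48 and -0.014 for the mitochondrial genome. In NPD 51 both were above 0, at 0.00044 for the mitochondrial genome. In each line these deviations share 1 library, and no test was made of their relation.

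**Figure D4:**
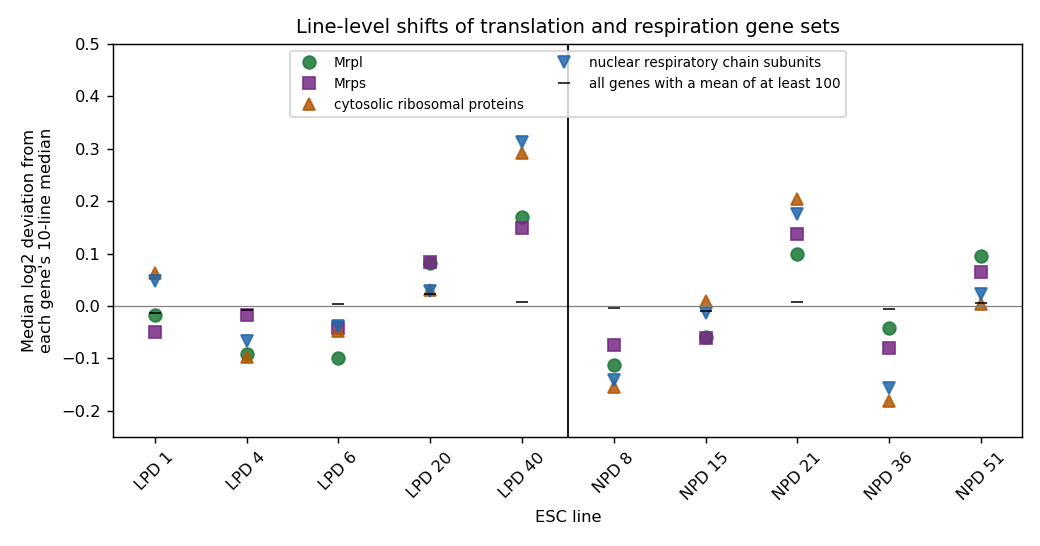
Median log2 deviation from each gene's median over 10 lines (vertical axis) in every ESC line (horizontal axis) for 49 Mrpl, 29 Mrps, 79 cytosolic ribosomal protein and 78 respiratory chain genes, with all 10455 genes whose mean was 100 or more as black dashes. Mrpl and Mrps lie close to each other in each line, from -0.11 in NPD 8 to 0.17 in LPD 40, while all genes stay near 0.

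Deviations also trended with transcript length across whole libraries. Among 10332 genes whose mean was 100 or more and whose length is known, the Spearman correlation of a line's deviation with transcript length was -0.400 in LPD 40, -0.277 in NPD 21, -0.143 in NPD 51 and -0.0142 in LPD 20. It was -0.0649 in LPD 1 and ran from 0.0701 in NPD 15 to 0.312 in NPD 8 in the other lines. This is a correlation across genes within 1 library, and genes are not independent replicates. With that trend removed from each line, the median deviation of the 78 genes fell from 0.17 to 0.055 in LPD 40 and from 0.11 to 0.037 in NPD 21. It stayed at 0.084 in LPD 20, and was 0.049 in NPD 51. The same 4 lines had 53, 55, 60 and 61 of 78 genes above their own median (LPD 40, NPD 21, LPD 20 and NPD 51), and the other 6 lines had 22 to 32. The median between-diet difference was then -0.010.

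**Figure D5:**
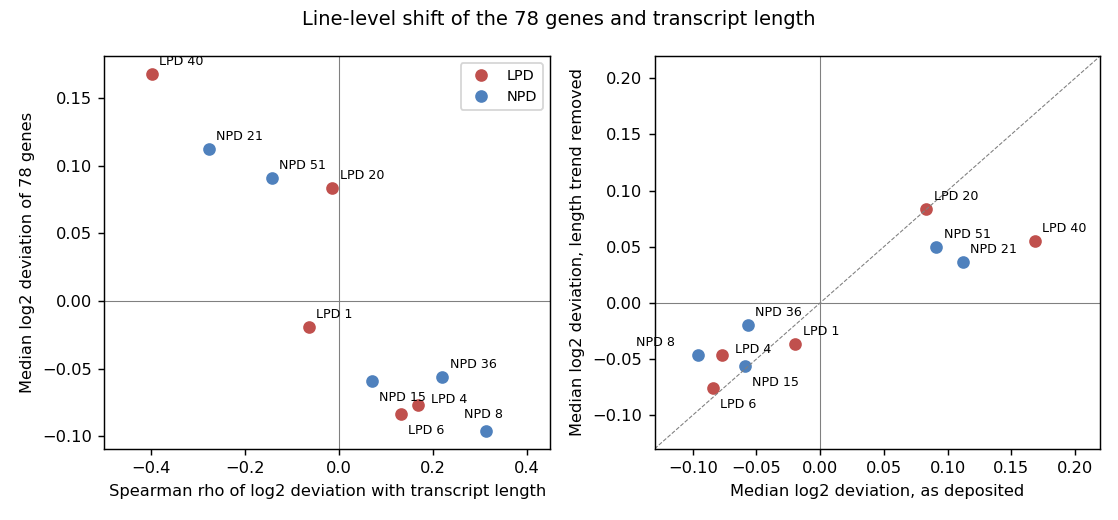
Left, median log2 deviation of the 78 genes in each line (vertical axis) against the Spearman correlation of that line's deviations with transcript length over 10332 genes (horizontal axis). Right, the same median after removal of the length trend (vertical axis) against the median as deposited (horizontal axis), with a dashed line of equality; LPD 40 moves from 0.17 to 0.055 and LPD 20 stays at 0.084.

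Within diets, the median SD of log2(value + 1) was 0.173 for the 78 genes, beside 0.168 for cytosolic ribosomal proteins and 0.180 for respiratory chain subunits. It was 0.198 for the 6192 genes whose mean lay in the range of the members' means, and 0.268 for all genes tested. Once the median shift of each line was taken off, the members' median SD was 0.120. The steadiest were Mrps2 and Mrps31, proteins of the small subunit, whose highest and lowest lines differed by 1.16-fold and 1.17-fold. The most variable was Mrpl47, a large-subunit homologue of bacterial L29, with an SD of 0.349. It was 599, 459.6, 433, 590.3 and 896 in LPD 1, 4, 6, 20 and 40, and 574, 381, 598, 505 and 581 in NPD 8, 15, 21, 36 and 51. LPD 40 stood far above and NPD 15 below the rest, 2.35-fold apart. Mrpl32, which is cleaved by a mitochondrial protease before it joins the large subunit, came next (SD 0.269), with 452 in LPD 40 and 236 to 328 in the other 9 lines. Mrps11, a homologue of bacterial S11, followed (SD 0.268), from 397 in LPD 4 to 711 in LPD 40. Beyond the shift of their line, the largest departures of single genes were -0.54 for Mrpl47 in NPD 15, 0.47 for Mrpl44 in LPD 20 and 0.46 for Mrpl47 in LPD 40. Mrpl23 is uncertain, at 255 to 375, since its processed pseudogene Mrpl23-ps1 was listed at 699.9 to 1047 and shares sequence with it.

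Genes that build, feed or control the mitoribosome were examined as lists, and Pprc1 alone passed a limma unadjusted p under 0.05 in them. Of all 14354 genes tested, 5.02% passed the same threshold. The counts at p under 0.05 below are also those of limma. Of 26 assembly factors 25 were tested, with a median difference of -0.030, 11 higher, 14 lower and 0 at p under 0.05. The smallest p was that of Mrm2, a methyltransferase of the large mitochondrial rRNA (-0.25 ± 0.15 SE, limma unadjusted p = 0.110). Of 16 mitochondrial translation factors 15 were matched, with a median of -0.064, 4 higher, 11 lower and 0 at p under 0.05. Tsfm, the elongation factor Ts of mitochondria, had the smallest p there (0.14 ± 0.08, limma unadjusted p = 0.114, exact permutation p = 0.0397). Of 7 genes of mitochondrial transcription 5 were lower (median -0.12), and Polrmt, the mitochondrial RNA polymerase, had the smallest p (-0.19 ± 0.11, limma unadjusted p = 0.112). The 13 protein-coding genes of the mitochondrial genome had a median of 0.053, with 9 higher and 0 at p under 0.05, and mt-Atp6, a subunit of ATP synthase, had the smallest p (0.13 ± 0.12, limma unadjusted p = 0.312). Cytosolic ribosomal proteins had a median of 0.071, with 72 of 79 higher in LPD but 0 at p under 0.05. Without LPD 40 the median was 0.016 and 49 were higher. For respiratory chain subunits the median was 0.081, 69 of 78 were higher and 0 were at p under 0.05. Without LPD 40 the values were 0.019 and 46.

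Among 9 tested regulators of mitochondrial biogenesis, Pprc1 was the only gene at a limma unadjusted p under 0.05, as against 5.02% of all genes tested. It encodes a coactivator related to PGC-1 that acts with NRF1. Its values were 2369, 2644, 2564, 3199 and 2245 in LPD 1, 4, 6, 20 and 40, and 3300.4, 3159, 2884, 3813 and 2979 in NPD 8, 15, 21, 36 and 51. LPD 20 lay within the NPD range and the other LPD lines below it (log2 difference -0.31 ± 0.11 SE, limma unadjusted p = 0.0129, adjusted p = 0.839 with Benjamini-Hochberg, exact permutation p = 0.0317). With depth as a covariate the log2 difference was -0.27, with a limma unadjusted p of 0.0751. LPD 4, LPD 6 and LPD 40 were the lines of low depth, so this covariate overlaps in part with diet. The factors whose motifs were searched did not pass that threshold by limma. Nrf1 was 1259 ± 324 in LPD and 1222 ± 55.9 in NPD (0.01 ± 0.15), Gabpa 2502 ± 284 and 2390.4 ± 203 (0.06 ± 0.10), and Yy1 2749.7 ± 200.3 and 2560.4 ± 134 (0.10 ± 0.08). Nrf1 was highest in LPD 20 at 1765, and between 954 and 1333 in the other 9 lines.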

How the data were processed

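RNA sequencing of 10 mouse ESC lines (5 LPD, 5 NPD) was analysed, with each line as 1 replicate and groups taken from the sample titles. According to the study's methods, the authors trimmed reads with cutadapt, filtered them on base quality and quantified transcripts with Salmon on GRCm38 transcripts. The deposited table holds a normalised signal per gene, an estimated count divided by a size factor as its name implies. How transcripts were summed to genes is not given in the sources used here. Whole reads could not be recovered for most genes, so no count model was used.

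Of 20206 genes 19891 were matched by identifier to GENCODE M21. Values were taken as log2(value + 1). Genes whose mean reached 10, 14354 in all, were fitted with limma 3.58.1 in R 4.3.3 (eBayes with a trend, no covariate), with Benjamini-Hochberg adjustment over all of them and a threshold of 0.1. Single genes were also tested by a two-sided exact permutation of mean log2 values. On simulated lines with 14354 genes, 68% of genes changed by 1 on the log2 scale and 84% of those changed by 2 were called. Depth per line was estimated from the value of 1 read in genes with 1 transcript (5810341 to 23969887 read equivalents), which bounds counting error only.

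The genes named are the 6 members with the smallest p in each direction, those whose groups do not overlap, the 5 highest and 5 lowest per length, the 3 most variable, members chosen by role, and in other lists those at p under 0.05 or else the smallest p. Mrpl22, Mrpl3 and Mrps22 (promoters), Mrps2 and Mrps31 (steadiest), and Nrf1, Gabpa and Yy1 were named after their values were seen. Members and lists were chosen with earlier results of these data known, so nothing here is independent of those. The p-values set the difference between diets against the spread between lines, which limma moderates with the spread of other genes. Alternatives were other pseudocounts (0.1, 0.5 and 10), filters, scalings, limma settings and tests, each line left out, and removal of the length trend, which was chosen after seeing the data. Python 3.11.15 with pandas 2.3.3 and scipy 1.17.1 was used for the other steps.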

Additional observations from a re-analysis of the deposited data

Results flagged for a closer look

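Of 164 tests of a diet group of 5 lines (78 genes and 4 medians per line, in both diets), 7 had a line far from the other 4 of its diet by Dixon's criterion; chance flags about 1 in 20. Mrpl38, of the central protuberance, was 1856 in LPD 6 and 1424 to 1448 in the other LPD lines. LPD 40 stood apart in Mrpl10 (1301, the others 1137 to 1165), Mrpl17 (1946, the others 1527 to 1620.4) and Mrps16 (1391, the others 866 to 995). LPD 20 stood apart in Mrps23 (447, the others 523 to 550.1) and Mrps5 (1852, the others 1593 to 1649.7). Among NPD lines, Mrpl33 was 956 in NPD 8 and 1190.2 to 1281 in the others.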

How the results depend on the processing

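No member had an adjusted p under 0.1 in any of 24 alternatives. The number at a limma unadjusted p under 0.05, 1 as reported, was 0 with depth as a covariate (4.13% of all genes). It ran from 0 to 2 when each line was left out, while the share of all genes ran from 3.82% to 6.29%. It was 0 without LPD 40, NPD 8 or NPD 36, and 2 without LPD 20 (Mrps23 and Mrps5) or NPD 21 (Mrpl1 and Mrpl16). By the exact Mann-Whitney test in place of limma, 2 members had an unadjusted p under 0.05 (3.59% of all genes). The number of genes whose groups do not overlap, also 1, was 2 with the same total per line and 2 with quantile normalization (Mrpl16 and Mrps5), as against 0.98% to 1.13% of all genes over the alternatives with all lines. It ran from 1 to 3 with each line left out: 2 without LPD 6 or NPD 21, and 3 without LPD 20, while the share of all genes ran from 1.46% to 2.72%. Leaving out a line leaves fewer values to overlap. The cause of the other moves was not tested. The median difference of the 78 genes lay between -0.025 and 0.052 over 25 alternatives, and was below 0 in 8 of them. The median deviation of single lines had an SD of 0.103 within diets, which is not the error of a difference between diets. The difference between the Mrpl and Mrps medians was below 0 in 25 of 25 (-0.056 to -0.012). Several of these alternatives cannot change that difference, and refits without 1 line share all the other lines. This count is therefore not a measure of robustness either. Among 13 single genes none changed direction in 299 refits. These genes were named for their small p-values, which favours a stable direction. Refits that change only the filter or the variance model leave a gene's log2 difference as it was, so the count is not a measure of robustness. Leaving out LPD 40 called 40 genes of the whole table at an adjusted p under 0.1 by limma, 0 of them mitoribosomal. No paired analysis was possible because the diets share no line numbers.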
